A study of Homo sapiens with 6 samples.

Results

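The enzymes that build cholesterol and fatty acids, with the factors that control them, were followed in DU145 cells carrying extra circCSPP1. The 31 genes were chosen by name, for their known place in the pathway: 5 regulators (SREBF1, SREBF2, SCAP, INSIG1 and INSIG2), the sterol carrier STARD4, 18 sterol synthesis genes and 7 fatty acid synthesis genes. All 31 are among the 19727 genes of the deposited table. DU145 is a human line grown from prostate cancer. The comparison was between cells transfected with lentivirus-circCSPP1, labelled as circCSPP1 overexpression, and cells transfected with the control lentivirus-NC, labelled as normal, with 3 libraries in each group. Both kinds of cell had been selected with puromycin to give stable lines, so each group also carried its own vector, and circCSPP1, the vector and the state of each stable line cannot be told apart. The labels do not say whether the 3 libraries of a group came from separate cultures, and the p-values measure only the spread between these libraries, which may be technical.

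Cholesterol is made from acetyl-CoA through mevalonate, which is turned into small isoprenoid units that are joined to squalene, closed to lanosterol and then trimmed step by step. Fatty acids start from the same acetyl-CoA and are extended and desaturated afterwards. Both branches are under the SREBP transcription factors: SREBF2 mainly drives sterol genes and SREBF1 mainly fatty acid genes, SCAP carries the precursor proteins out of the endoplasmic reticulum, and INSIG1 and INSIG2 hold them back when sterols are plentiful. Prostate cancer cells are known for high lipid synthesis.

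Values are FPKM, fragments scaled to transcript length and to library size, so levels can be set side by side between genes. In bulk RNA, fewer cells of a type and less RNA per cell cannot be told apart. They were taken to log2(FPKM + 1), and a fold change below is a difference on that scale, which understates the change of low genes. A gene was called when its adjusted p was under 0.05 (limma with Benjamini-Hochberg adjustment over the 12322 genes whose mean reached 1 FPKM). All 31 members passed that filter. For any one gene, the lowest p that exact permutation of 3 and 3 libraries allows is 0.10, two-sided. Depth, estimated from the steps between low values, was 28900000 to 36600000 fragments per library and overlapped between the groups, and the lowest member value stood for about 405 fragments. CSPP1, the gene circCSPP1 comes from, measured 9.11, 10.08 and 9.44 FPKM in lentivirus-NC and 14.47, 22.76 and 21.36 FPKM in lentivirus-circCSPP1 (log2 fold change 0.94, with a standard error of 0.17 and an adjusted p of 0.016 in limma). FPKM per gene does not tell linear CSPP1 mRNA, circCSPP1 and RNA from the vector apart. By qRT-PCR the paper reports more circCSPP1 with this lentivirus in DU145, without a change of CSPP1 mRNA or protein.

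One library stood apart. Replicate 1 of lentivirus-circCSPP1 departed from replicates 2 and 3 with the GC content of the transcript (Spearman rho 0.81 across 7663 genes; GC content and length explained 59.8% of the variance between them, against 0.881% to 1.63% in the lentivirus-NC libraries). Replicates 2 and 3, each set against the other 2 of the group, had a rho of the opposite sign (-0.75 and -0.55, with 46.8% and 17.8% of the variance). Replicate 1 is among the other 2 there, so the opposite sign is partly built in. The counts of calls, and the genes and lists whose call changed, are therefore also given without this library and after a correction of every library for GC content and length. DU145 markers were present: KRT8, KRT18, EPCAM, CDH1 and VIM summed to between 2851 and 2909 FPKM in lentivirus-NC and between 1733 and 2012 FPKM in lentivirus-circCSPP1, and 4 of the 5, all but VIM, were called lower. KLK3, a marker of luminal prostate cells, was at 0 in all 6 libraries. The 10 markers of other cell types summed to 3.14 to 4.64 FPKM in lentivirus-NC and 1.28 to 1.64 FPKM in lentivirus-circCSPP1, with 9 of the 10, all but COL1A1, under 1 FPKM in every library and CD3E and ADIPOQ at 0. The part of these marker levels in the results below was not tested.

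Of the 31 members, 9 were called with 6 libraries, all lower with lentivirus-circCSPP1: ACAT2, IDI1, FDPS, FDFT1, LSS and NSDHL of the sterol branch and ACLY, SCD and ELOVL6 of the fatty acid branch. Over all tested genes 11.4% were called, 6.66% lower and 4.69% higher. In 13 members every lentivirus-circCSPP1 library was below every lentivirus-NC library, against 20.5% of all tested genes, and in 1 member every one was above, against 16.0% of all tested genes. The log2 fold change was below 0 in 28 members, and in 54.0% of all tested genes. The median over the members was -0.25, and over all tested genes -0.03. No member passed an unadjusted p of 0.01 together with an absolute log2 fold change of 1.5, the thresholds of the paper, which 0.195% of the tested genes passed.

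The number of members called depended on the libraries. Without lentivirus-circCSPP1 replicate 1 it was 16, all lower (15.3% of all tested genes were then called lower and 13.2% higher), and after the correction for GC content and length it was 15, of which 14 were lower and 1, SREBF1, was higher (13.9% of the genes then tested lower, 14.7% higher). It was 5 without lentivirus-circCSPP1 replicate 2, 2 without replicate 3 of that group (FDPS and IDI1), and 1 (IDI1) without any of the lentivirus-NC replicates 1, 2 or 3. Over all genes the same fits called 3512 genes without lentivirus-circCSPP1 replicate 1, 1160 without replicate 2 and 450 without replicate 3, and 300, 317 and 407 without lentivirus-NC replicates 1, 2 and 3. What changed without lentivirus-circCSPP1 replicate 1 ran with GC content. The members gained were SCAP, MVD, EBP, DHCR7, FASN and FADS2, with 53.5% to 65.6% GC, and HSD17B7, with 46.9%. Of these, SCAP and DHCR7 were not called after the correction. STARD4, HMGCS1, SQLE, CYP51A1 and MSMO1, which changed sign to above 0, have 34.2% to 46.5% GC. The part of GC content in that fit was not tested.

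**Figure D1:**
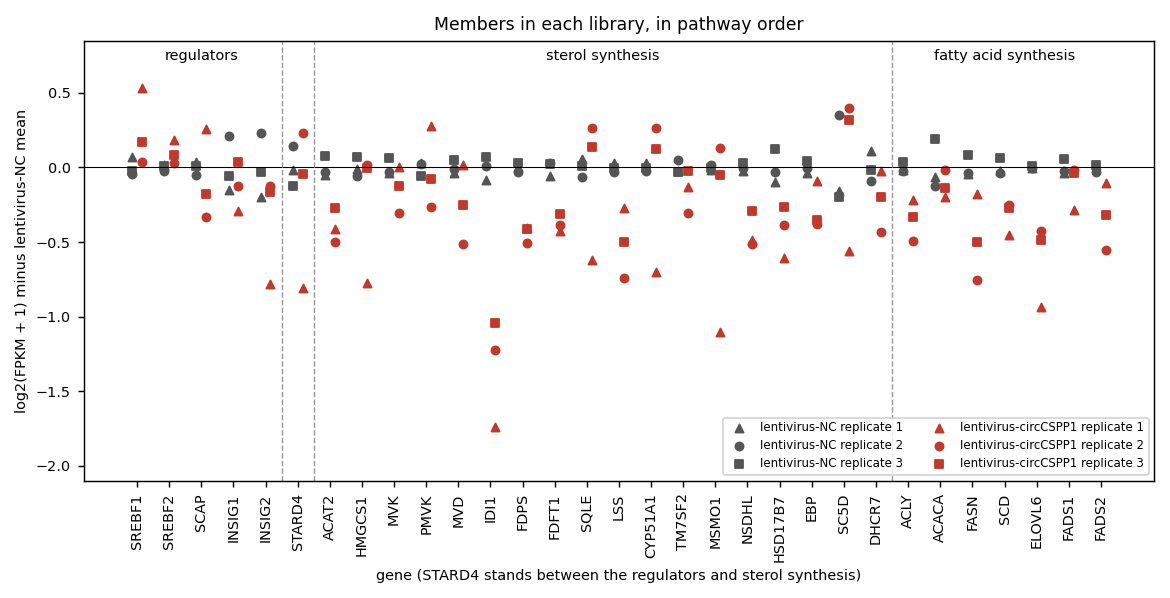
Each point is 1 library, as log2(FPKM + 1) minus the lentivirus-NC mean of the gene, for the 31 members in pathway order, grey for lentivirus-NC and red for lentivirus-circCSPP1. IDI1 lies farthest below 0 in all 3 red libraries, and in several sterol genes (SQLE, CYP51A1, MSMO1, SC5D, HMGCS1) the red triangle of replicate 1 is far below the other red points.

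The regulators did not pass the test. SREBF1 measured 54.44, 50.36 and 50.91 FPKM in lentivirus-NC and 75.64, 53.30 and 58.55 FPKM in lentivirus-circCSPP1. The groups overlapped, with replicate 1 of lentivirus-circCSPP1 the highest library. Its log2 fold change was 0.25 with a standard error of 0.13 (limma, adjusted p = 0.27), 0.10 without that library (adjusted p = 0.29) and 0.32 after the correction for GC content and length (adjusted p = 0.0079), the single alternative in which it was called.

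SREBF2 measured 122.02, 118.21 and 121.12 FPKM in lentivirus-NC and 137.29, 123.20 and 127.45 FPKM in lentivirus-circCSPP1. The groups were apart, with lentivirus-circCSPP1 the higher, in this member alone, and the log2 fold change was 0.10 with a standard error of 0.08 (adjusted p = 0.43). SCAP, the escort protein, measured 53.59, 50.39 and 52.45 FPKM against 62.41, 41.13 and 45.96 FPKM. Replicate 1 was above and replicates 2 and 3 were below all lentivirus-NC libraries, so that the log2 fold change of -0.09 (adjusted p = 0.76) became -0.26 without replicate 1 (adjusted p = 0.039) and -0.02 after the correction (adjusted p = 0.85).

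INSIG1, itself a target of SREBP, measured 60.09, 77.52 and 64.43 FPKM in lentivirus-NC and 54.42, 61.35 and 68.63 FPKM in lentivirus-circCSPP1 (log2 fold change -0.13, adjusted p = 0.56), with overlapping groups. INSIG2, its paralogue, was the lowest member in level, at 7.72, 10.76 and 8.81 FPKM against 4.84, 8.19 and 7.95 FPKM (log2 fold change -0.36, adjusted p = 0.30). STARD4, which moves cholesterol between membranes, lay at 14.91, 16.75 and 13.75 FPKM against 8.17, 17.90 and 14.64 FPKM (log2 fold change -0.21, adjusted p = 0.65). In both genes replicate 1 of lentivirus-circCSPP1 was the lowest of the 6 libraries, and without it the log2 fold change was -0.14 for INSIG2 and 0.10 for STARD4.

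In the sterol branch 17 of the 18 genes had a log2 fold change below 0, with a median of -0.26, and 6 were called lower and 0 higher (limma; at an unadjusted p under 0.05 the number higher was also 0). The first step was lower: ACAT2, which joins 2 molecules of acetyl-CoA, measured 93.83, 95.39 and 102.68 FPKM in lentivirus-NC and 72.84, 68.59 and 80.35 FPKM in lentivirus-circCSPP1. The groups were apart, and the log2 fold change was -0.39 with a standard error of 0.09 (adjusted p = 0.032). The exons of ACAT2 overlap those of TCP1 and SOD2 on the other strand, and strand was not stated for the counting, so fragments of these genes cannot be told apart there.

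HMGCS1, which makes HMG-CoA, measured 106.26, 103.15 and 112.50 FPKM against 62.26, 108.63 and 107.06 FPKM. Only replicate 1 of lentivirus-circCSPP1 was below the lentivirus-NC libraries, and without it the log2 fold change went from -0.25 (adjusted p = 0.47) to 0.01 (adjusted p = 0.93). The enzymes that turn mevalonate into isopentenyl pyrophosphate were not called: MVK, PMVK and MVD had log2 fold changes of -0.14, -0.02 and -0.25 with 6 libraries. MVD, whose lentivirus-circCSPP1 values were 180.70, 124.77 and 150.03 FPKM against 174.10, 177.29 and 184.70 FPKM, was called lower without replicate 1 (log2 fold change -0.38, adjusted p = 0.021) and after the correction (-0.24, adjusted p = 0.030).

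IDI1, the isomerase that makes the second isoprenoid unit from the first, had the lowest fold change of the members and the 27th lowest of the 12322 tested genes. It measured 85.34, 91.41 and 95.29 FPKM in lentivirus-NC (mean 90.7 ± 5.02, SD, n = 3) and 26.39, 38.15 and 43.54 FPKM in lentivirus-circCSPP1 (36.0 ± 8.77, SD, n = 3). All 3 lentivirus-circCSPP1 libraries were far below the lentivirus-NC ones. The log2 fold change was -1.34 with a standard error of 0.17 (limma, adjusted p = 0.0058), -1.13 without replicate 1 (adjusted p = 0.0011) and -1.28 after the correction (adjusted p = 0.00051). It was called in 16 of the 17 alternatives and in each of the 6 that left out a library, with an adjusted p of 0.0501 without moderation of the variance. Within a library, IDI1 stood at 14.1%, 15.4% and 15.4% of the level of FDPS, the next enzyme, in lentivirus-NC and at 5.78%, 8.95% and 9.57% in lentivirus-circCSPP1. Scaling a library by 1 factor does not move this ratio, while the departure of replicate 1 with GC content can. IDI1 has 41.1% GC and FDPS 55.1%, and replicate 1 departed from replicates 2 and 3 by -0.61 and 0.05 on the log2 scale. An antisense gene, IDI2-AS1, shares exon sequence with IDI1.

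FDPS, which makes farnesyl pyrophosphate, was among the most abundant members and had the smallest standard error of the 31. It measured 606.81, 593.76 and 619.04 FPKM in lentivirus-NC and 456.47, 426.49 and 454.89 FPKM in lentivirus-circCSPP1, with the groups apart (log2 fold change -0.44, standard error 0.06, adjusted p = 0.0079). GENCODE names 8 pseudogenes after FDPS, whose fragments the counting could have shared. FDFT1, the squalene synthase that opens the branch to sterols proper, was also lower, at 238.71, 253.05 and 252.44 FPKM against 184.59, 189.84 and 200.03 FPKM (log2 fold change -0.37, standard error 0.07, adjusted p = 0.018). Replicate 1 of lentivirus-circCSPP1 did not stand out in either gene: it differed from the mean of replicates 2 and 3 by 0.05 on the log2 scale for FDPS and by -0.08 for FDFT1.

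SQLE, the epoxidase that follows, went the other way in replicates 2 and 3. It measured 83.06, 76.40 and 80.31 FPKM in lentivirus-NC and 51.56, 96.08 and 88.03 FPKM in lentivirus-circCSPP1 (log2 fold change -0.07, adjusted p = 0.86; without replicate 1, 0.20, adjusted p = 0.064). LSS, which closes the ring to lanosterol, was lower in every library: 147.86, 141.69 and 144.14 FPKM against 119.41, 85.91 and 101.89 FPKM (log2 fold change -0.51, standard error 0.12, adjusted p = 0.037). It was the second lowest of the sterol branch in fold change, after IDI1.

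Past lanosterol the genes differed among themselves. CYP51A1, the demethylase that acts first on lanosterol, measured 117.15, 112.99 and 114.37 FPKM against 70.11, 138.34 and 125.47 FPKM, so that 1 lentivirus-circCSPP1 library lay below and 2 above all of lentivirus-NC. The log2 fold change of CYP51A1 was -0.10 (adjusted p = 0.82) with 6 libraries, 0.20 without replicate 1 (adjusted p = 0.052) and -0.05 after the correction (adjusted p = 0.80). MSMO1, a methyl oxidase of the demethylation complex, had the largest standard error of the branch on the log2 scale, at 50.22, 51.58 and 50.82 FPKM against 23.12, 55.74 and 49.00 FPKM (log2 fold change -0.34, adjusted p = 0.49; without replicate 1, 0.04, adjusted p = 0.71). CYP51A1 shares exons with an overlapping gene model and GENCODE names 3 pseudogenes after it.

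NSDHL, the dehydrogenase that works beside MSMO1, was called lower, at 37.30, 37.97 and 38.79 FPKM in lentivirus-NC and 26.82, 26.29 and 30.88 FPKM in lentivirus-circCSPP1 (log2 fold change -0.43, standard error 0.10, adjusted p = 0.029). HSD17B7, the reductase of the same complex, had its groups apart, at 55.46, 57.94 and 64.80 FPKM against 38.64, 45.04 and 49.14 FPKM. Its log2 fold change of -0.42 missed the threshold (adjusted p = 0.057) and passed it without replicate 1 (adjusted p = 0.034) and after the correction (adjusted p = 0.015); GENCODE names 2 pseudogenes after it. EBP, a sterol isomerase, was similar, at 141.95, 145.12 and 150.23 FPKM against 136.86, 112.01 and 114.02 FPKM (log2 fold change -0.27, adjusted p = 0.11; without replicate 1, -0.36, adjusted p = 0.0053; corrected, -0.27, adjusted p = 0.024).

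The desaturase SC5D and the reductases TM7SF2 and DHCR7 did not pass with 6 libraries. SC5D measured 22.25, 32.15 and 21.60 FPKM in lentivirus-NC and 16.57, 33.20 and 31.26 FPKM in lentivirus-circCSPP1, and its log2 fold change of 0.05 (adjusted p = 0.93) lay between -0.12 and 0.36 over the 6 fits that left out a library. TM7SF2, a sterol reductase, was not called either (log2 fold change -0.15, adjusted p = 0.34). DHCR7, which makes cholesterol in the final step, measured 364.34, 316.25 and 333.63 FPKM against 332.54, 249.52 and 294.78 FPKM (log2 fold change -0.22, adjusted p = 0.27; without replicate 1, -0.31, adjusted p = 0.047).

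**Figure D2:**
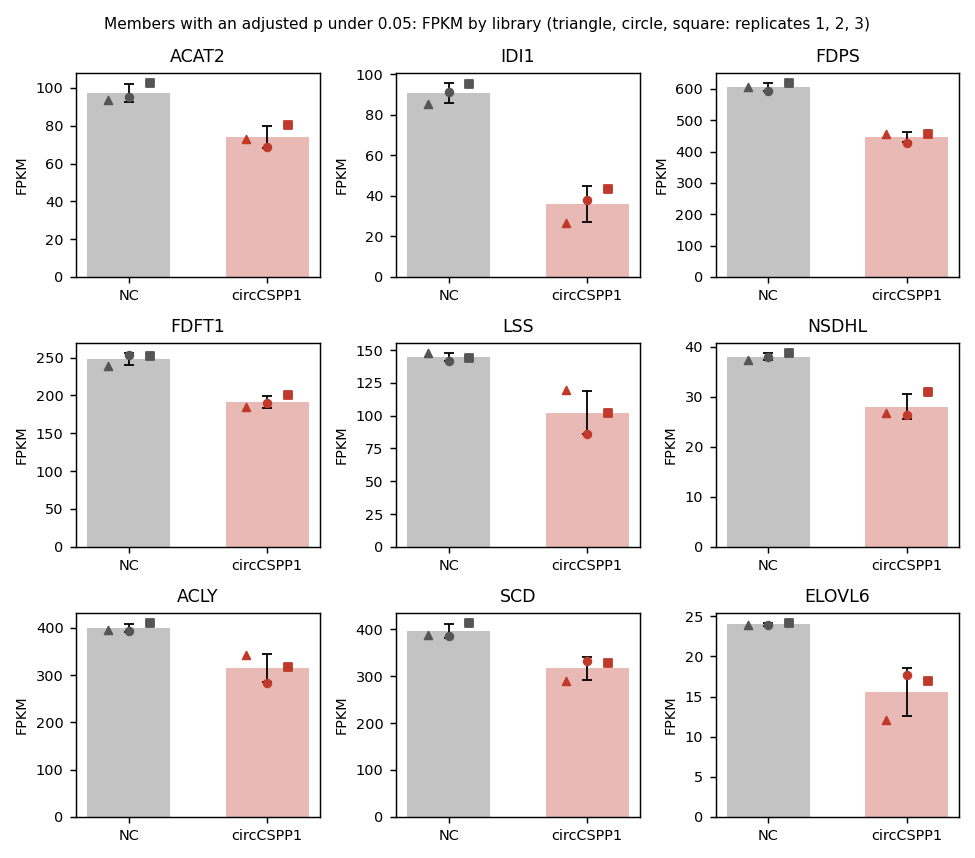
FPKM of the 9 called members in each library, with bars for the group mean and error bars for the SD (n = 3); NC is lentivirus-NC and circCSPP1 is lentivirus-circCSPP1. In all 9 the highest lentivirus-circCSPP1 library is below the lowest lentivirus-NC library, and the ratio of the means is farthest from 1 for IDI1 (90.7 against 36.0 FPKM).

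In the fatty acid branch all 7 genes had a log2 fold change below 0, from -0.61 to -0.11 with a median of -0.33, and 3 were called lower. ACLY, which makes cytosolic acetyl-CoA from citrate for both branches, measured 395.46, 392.72 and 410.36 FPKM in lentivirus-NC and 342.71, 283.77 and 317.66 FPKM in lentivirus-circCSPP1 (log2 fold change -0.35, standard error 0.08, adjusted p = 0.040). ACACA, the carboxylase that commits acetyl-CoA to fatty acids, had overlapping groups, at 43.83, 42.01 and 52.69 FPKM against 39.94, 45.46 and 41.73 FPKM (log2 fold change -0.12, adjusted p = 0.54). FASN, the fatty acid synthase, had its groups apart, at 496.44, 497.22 and 540.81 FPKM against 451.42, 302.03 and 361.44 FPKM. Its log2 fold change of -0.48, with a standard error of 0.14 and an adjusted p of 0.068, became -0.63 without replicate 1 (adjusted p = 0.0053) and -0.34 after the correction (adjusted p = 0.013).

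SCD, which puts the first double bond into saturated fatty acids, was called lower, at 388.91, 386.01 and 413.96 FPKM in lentivirus-NC and 289.49, 332.50 and 327.76 FPKM in lentivirus-circCSPP1 (log2 fold change -0.33, standard error 0.08, adjusted p = 0.041). ELOVL6, which lengthens saturated fatty acids, had the lowest fold change of the branch. It measured 23.92, 23.89 and 24.19 FPKM against 12.10, 17.64 and 16.88 FPKM (log2 fold change -0.61, standard error 0.15, adjusted p = 0.037), and it was -0.45 without replicate 1 (adjusted p = 0.0055) and -0.55 after the correction (adjusted p = 0.0018).

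The desaturases of polyunsaturated fatty acids, whose genes lie side by side on chromosome 11 and share exon sequence on opposite strands, were not called. FADS2 was the most abundant member, at 638.45, 619.91 and 638.97 FPKM in lentivirus-NC and 588.67, 430.90 and 506.72 FPKM in lentivirus-circCSPP1. The groups were apart (log2 fold change -0.32, adjusted p = 0.11), and it was called without replicate 1 (-0.44, adjusted p = 0.0090) and after the correction (-0.27, adjusted p = 0.014). FADS1 had overlapping groups, at 420.95, 425.12 and 449.24 FPKM against 354.19, 426.92 and 419.79 FPKM (log2 fold change -0.11, adjusted p = 0.45).

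The sterol and fatty acid branches were set against each other. Against the lentivirus-NC mean, the median gene of the sterol branch lay at -0.42, -0.38 and -0.22 on the log2 scale in lentivirus-circCSPP1 replicates 1, 2 and 3, and that of the fatty acid branch at -0.22, -0.42 and -0.32. In the lentivirus-NC libraries these medians lay between -0.02 and 0.03 and between -0.03 and 0.06. The order of the branches differed between libraries: the sterol median was the lower one in replicate 1 and the higher one in replicates 2 and 3. Over the 18 sterol genes the median log2 fold change was -0.26, -0.32 without replicate 1 and -0.26 after the correction; over the 7 fatty acid genes it was -0.33, -0.41 and -0.29. The branch medians differed by 0.06, less than the spread of this difference between libraries of a group (SD 0.11). The spread of a branch median alone was an SD of 0.08 in each branch. No test was run on the difference, since genes are not replicates. The median of all tested genes was -0.08, 0.02 and -0.01 in the same 3 libraries.

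**Figure D3:**
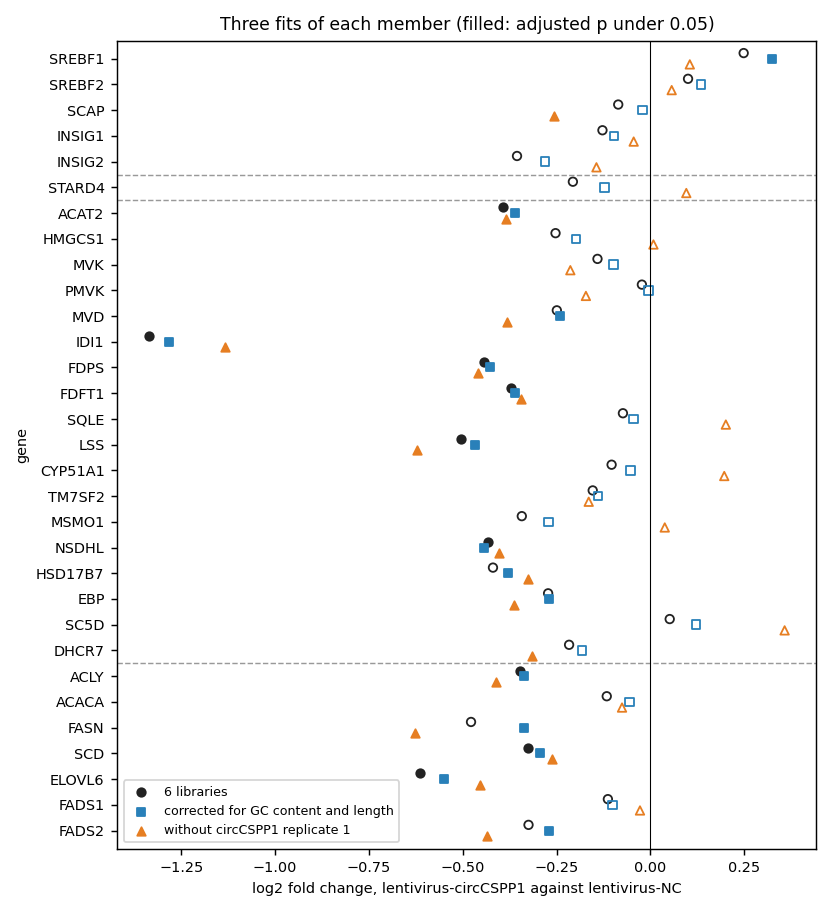
Log2 fold change of each member with 6 libraries (circles), after correction for GC content and length (squares) and without lentivirus-circCSPP1 replicate 1 (triangles), filled where the adjusted p was under 0.05. The 9 members called with 6 libraries are filled in all 3 fits, IDI1 stands alone near -1.3, and SQLE, CYP51A1, MSMO1, HMGCS1 and STARD4 cross 0 without replicate 1.

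The members span transcripts of 34.2% to 65.6% GC content, and replicate 1 of lentivirus-circCSPP1 departed from replicates 2 and 3 in step with it. Across the 31 members Spearman's rho between departure and GC content was 0.94, a description over genes that share the same libraries. The departure ran from -1.14 for MSMO1 and -0.92 for SC5D to 0.51 for SCAP on the log2 scale. STARD4, HMGCS1, CYP51A1 and SQLE, with 34.2% to 46.5% GC, lay between -0.91 and -0.78, and SREBF1, FASN, PMVK and MVD, with 59.5% to 65.6% GC, between 0.40 and 0.45. Of the 9 called members, the departure was largest in IDI1 (-0.61), ELOVL6 (-0.48) and LSS (0.35), and for FDPS, FDFT1, ACAT2 and NSDHL it was between -0.08 and 0.05. Those 9 members were called in the fit without replicate 1 and in the corrected fit as well.

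**Figure D4:**
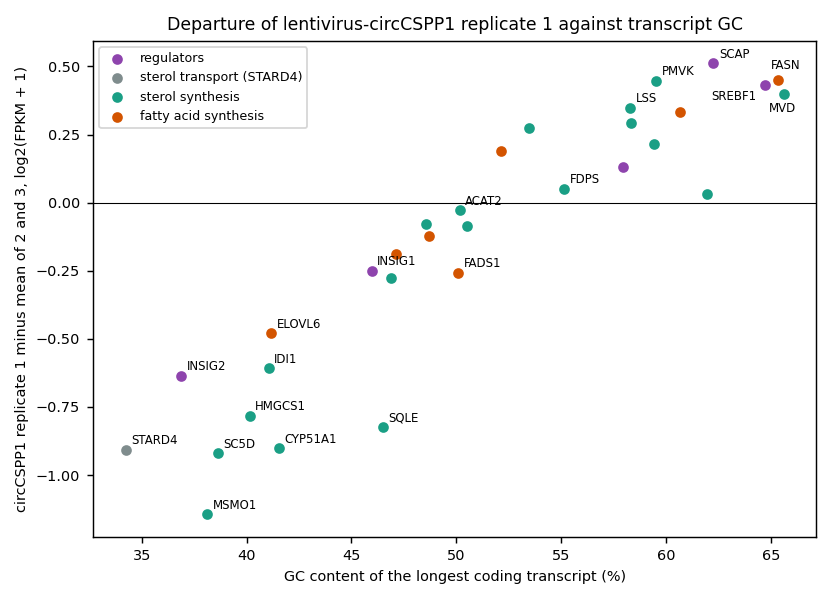
Each point is 1 member: GC content of its longest protein-coding transcript (x axis, %) against the difference between lentivirus-circCSPP1 replicate 1 and the mean of replicates 2 and 3 on the log2(FPKM + 1) scale (y axis), coloured by role. Points rise from MSMO1 at -1.14 to SCAP at 0.51, and sterol and fatty acid genes lie along the same trend.

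Promoters were read for motifs because the members share control by SREBP, which binds the sterol regulatory element together with the factors NF-Y and Sp1. RefSeq promoters on GRCh38.p14, from 250 bases before to 50 bases after the start, were matched by symbol for 27 members; ACAT2, FDFT1, SQLE and FASN had no entry. The letters searched for the element, TCACNCCAC, were found on either strand in 1 of the 27 (SREBF2) and in 1.15% of all 27305 promoters. Other forms of the element were not searched, so a window without these letters may still hold it. The NF-Y box, CCAAT on either strand, was found in 12 of 15 sterol synthesis promoters and 2 of 6 fatty acid synthesis promoters, against 35.7% of all promoters. The GC box of Sp1, GGGCGG, was found in 14 of the 15 and 5 of the 6 (44.6% of all promoters, and 71.8% of those of tested genes). The E-box CACGTG was found in 2 of the 15 and 0 of the 6 (7.43% of all promoters, and 10.3% of those of tested genes). A match is a description of these letters in this window. For 16 of the 27 the RefSeq start lay within 300 bases of the 5′ end of the GENCODE 29 gene, FDPS, LSS, NSDHL, SCD and SREBF2 among them. The other 11 lay farther off: IDI1 (7534 bases, with 0 NF-Y boxes in its window), 4 of the 6 fatty acid promoters, namely ACLY (11520), FADS1 (12315), FADS2 (23223) and ELOVL6 (584), and CYP51A1, DHCR7, EBP, MVK, SC5D and SCAP. Their windows may not cover the start used in these cells.

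Shown are 3 sterol genes and 1 fatty acid gene that were called lower and hold NF-Y boxes, in capitals on either strand, 5′ to 3′ in the direction of the gene. NSDHL has 5 boxes, of which 2 overlap on opposite strands, FDPS has 3, SCD has 2 and LSS has 1. Members that were not called hold boxes too, among them MVK with 5, MSMO1 with 4 and MVD with 3. The windows of IDI1 and ELOVL6, both called lower, hold 0. Whether the boxes go with the change was not tested.
FDPS, chr1:155308616-155308915, plus strand: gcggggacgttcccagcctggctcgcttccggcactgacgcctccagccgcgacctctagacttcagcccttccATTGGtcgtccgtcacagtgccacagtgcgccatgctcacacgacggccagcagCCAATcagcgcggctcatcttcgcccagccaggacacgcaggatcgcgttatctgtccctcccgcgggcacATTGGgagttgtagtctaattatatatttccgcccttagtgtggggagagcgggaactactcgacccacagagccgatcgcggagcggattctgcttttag
LSS, chr21:46228725-46229024, minus strand: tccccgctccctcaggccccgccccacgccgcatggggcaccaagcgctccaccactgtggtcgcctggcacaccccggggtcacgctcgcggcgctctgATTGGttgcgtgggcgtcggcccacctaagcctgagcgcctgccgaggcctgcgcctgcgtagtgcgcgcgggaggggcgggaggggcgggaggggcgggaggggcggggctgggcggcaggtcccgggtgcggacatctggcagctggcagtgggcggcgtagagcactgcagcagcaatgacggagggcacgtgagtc
NSDHL, chrX:152830813-152831112, plus strand: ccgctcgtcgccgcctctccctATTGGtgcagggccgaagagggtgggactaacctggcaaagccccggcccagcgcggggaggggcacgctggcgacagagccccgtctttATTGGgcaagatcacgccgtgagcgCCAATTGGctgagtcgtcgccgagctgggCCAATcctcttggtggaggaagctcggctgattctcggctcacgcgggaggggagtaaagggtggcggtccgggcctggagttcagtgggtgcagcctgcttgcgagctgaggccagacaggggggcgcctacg
SCD, chr10:100346983-100347282, plus strand: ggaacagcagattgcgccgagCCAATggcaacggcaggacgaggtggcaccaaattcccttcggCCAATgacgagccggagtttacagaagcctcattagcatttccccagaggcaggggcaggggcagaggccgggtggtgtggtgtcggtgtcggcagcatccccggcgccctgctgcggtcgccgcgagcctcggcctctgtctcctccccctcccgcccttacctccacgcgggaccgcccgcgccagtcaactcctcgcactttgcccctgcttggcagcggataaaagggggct

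SREBF2 is shown because its window alone held the letters searched for the sterol regulatory element, TCACNCCAC, in capitals, at -133 to -125 from the start. Its level did not pass the test.
SREBF2, chr22:41832855-41833154, plus strand: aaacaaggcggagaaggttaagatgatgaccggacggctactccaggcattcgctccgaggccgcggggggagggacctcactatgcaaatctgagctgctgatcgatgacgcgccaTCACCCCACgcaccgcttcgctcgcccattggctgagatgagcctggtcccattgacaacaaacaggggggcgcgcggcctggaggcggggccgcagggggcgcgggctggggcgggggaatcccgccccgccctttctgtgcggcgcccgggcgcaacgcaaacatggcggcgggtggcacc

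The genes around these branches were read from lists written for this purpose. Of the 8 genes of SREBP processing and turnover, which include the proteases MBTPS1 and MBTPS2, 0 were called in limma (1, FBXW7, had an unadjusted p under 0.05 and was called higher after the correction, adjusted p = 0.0345), with log2 fold changes from -0.25 to 0.40. Of the 11 tested genes of sterol transport, esterification and efflux, 3 were called, all lower. Over all tested genes 11.4% were called, 6.66% lower. Without replicate 1 of lentivirus-circCSPP1 the number was 3 lower and 0 higher (15.3% and 13.2% over all genes). After the correction it was 3 lower and 1 higher (13.9% and 14.7% over all genes). ABCA1, which exports cholesterol from the cell, was low in level and fell from 3.19, 4.26 and 3.53 FPKM to 1.39, 1.10 and 1.01 FPKM (log2 fold change -1.10, standard error 0.13, adjusted p = 0.0046). SCARB1, the receptor for high-density lipoprotein, fell by 0.49 on the log2 scale (adjusted p = 0.041) and NPC2, which hands cholesterol out of the lysosome, by 0.33 (adjusted p = 0.047), a call that was lost after the correction (adjusted p = 0.078).

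The isoprenoid branch uses farnesyl pyrophosphate for prenyl groups, dolichol and ubiquinone. In limma 0 of its 12 genes were called, beside 11.4% of all tested genes. The log2 fold change was above 0 in 9 of the 12, beside 5674 of all 12322 genes, with a median of 0.09. Of the 12, 3 had an unadjusted p under 0.05. After the correction 3 of the 12 were called higher and 1 lower (14.7% and 13.9% over all genes), with a median of 0.14. Without replicate 1 of lentivirus-circCSPP1, 2 were called higher and 1 lower (13.2% and 15.3% over all genes). The median was then 0.21. Of 20 further genes of fatty acid synthesis, elongation, desaturation and activation that were tested, 3 were called lower and 0 higher, beside 6.66% and 4.69% of all tested genes. The correction gave 5 lower and 3 higher (13.9% and 14.7% over all genes), with a median of -0.06. Leaving out replicate 1 gave 4 lower and 0 higher (15.3% and 13.2% over all genes), with a median of 0.05. With 6 libraries the median was -0.12. ACSS2, which makes acetyl-CoA from acetate, fell from 148.21, 145.37 and 136.95 FPKM to 101.87, 79.56 and 100.95 FPKM (log2 fold change -0.61, standard error 0.11, adjusted p = 0.016). ELOVL2, an elongase of polyunsaturated fatty acids, fell by 0.66 (adjusted p = 0.030) and SCD5, a second stearoyl-CoA desaturase, by 0.56 (adjusted p = 0.034).

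Genes that store or burn fatty acids were read in the same way. Among 10 genes of glycerolipid synthesis and storage, LPIN3, a phosphatidate phosphatase, was the single one called, beside 11.4% of all tested genes. It went from 9.88, 9.33 and 9.39 FPKM to 6.76, 5.43 and 5.87 FPKM (log2 fold change -0.59, limma, adjusted p = 0.019). The correction gave 3 lower and 1 higher in this list (13.9% and 14.7% over all genes). The higher one was the lipase PNPLA2 (log2 fold change 0.42, limma, adjusted p = 0.0059). Leaving out replicate 1 gave 4 lower and 1 higher (15.3% and 13.2% over all genes). The higher one was then LPIN2 (0.19, adjusted p = 0.036). Both PNPLA2 and LPIN2 were chosen after their values were seen. In fatty acid oxidation 14 of 15 tested genes had a log2 fold change below 0, with a median of -0.26. Over all tested genes 54.0% were below 0, with a median of -0.03. Of the 15, 3 were called lower and 0 higher (6.66% and 4.69% over all genes). After the correction 5 were called lower, and without replicate 1 6, with 0 higher in both. Over all genes 13.9% and 15.3% were lower in these fits. ACADVL, the first enzyme of mitochondrial oxidation of long chains, fell from 371.02, 364.91 and 393.43 FPKM to 255.27, 255.07 and 242.46 FPKM (log2 fold change -0.58, standard error 0.07, adjusted p = 0.0045). The carnitine carrier SLC25A20 fell by 0.65 (adjusted p = 0.015) and ACADS, which acts on short chains, by 0.48 (adjusted p = 0.035). The difference between the synthesis and oxidation lists was not tested.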

How the data were processed

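Polyadenylated RNA of 6 DU145 libraries was sequenced in paired-end mode by the authors, who deposited 1 table of FPKM values for 19727 genes, rounded to 2 decimals, with 1 column per library. The submitters' processing notes name the build hg38; the aligner, counting program and annotation are not given in the sources used here. Columns were matched to samples by name, and 0 columns were left over. Since FPKM is not a count, count models were not run, and FPKM moves with the rest of the library.

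Values were taken to log2(FPKM + 1), and 12322 genes, those whose mean reached 1 FPKM, entered limma 3.58.1 under R 4.3.3 (trended eBayes, two-sided, without covariates), with Benjamini-Hochberg adjustment over all of them. The paper names no test for its RNA-seq. Groups were taken from the labels. Depth came from the step between whole multiples of FPKM times length in genes with a single transcript under 800 nt (92.4% to 98.3% of values within 0.15 of a step). Transcript length, GC content and gene positions came from GENCODE release 29 on GRCh38, which may not be the authors' annotation, where 19674 genes matched a protein-coding transcript. The correction for GC content and length subtracted a loess fit (span 0.3) from each library. Promoters came from RefSeq. The fit was tested on simulated data for 12299 genes (3 against 3), where all 200 genes shifted by 2 on the log2 scale were recovered and 0.0413% of the others were called. Every simulated gene had the same spread, the median of the lentivirus-NC libraries, in both groups and no trend with GC content. The shift was larger than that of any member, so these rates check the code and do not carry over to the members.

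The members and gene lists were chosen with earlier results of these data known. All members are named; from each further list at most the 4 called genes with the lowest or highest fold change are described, and genes with an unadjusted p under 0.05 were counted, and 1 named, after their values were seen, where a list had no call. Some genes of these lists are not reported here by name. Alternatives included a pseudocount of 0.1 or 0.01, a filter at 5 FPKM or none, TPM, median-ratio and quantile scaling, no moderation, robust moderation, a block for the replicate number, the correction for GC content and length, and leaving out each library. Figures were drawn with matplotlib 3.10.9.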

Additional observations from a re-analysis of the deposited data

How the results depend on the processing

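The medians of both branches stayed below 0 under all 17 alternatives, between -0.32 and -0.22 for sterol synthesis and between -0.41 and -0.27 for fatty acid synthesis, and their difference lay between -0.04 and 0.09. Of 527 comparisons of a member under an alternative, 441 kept direction and side of the threshold, 56 lost the call, 17 gained it and 13 changed sign. The 9 called members became 5 with no filter on low values and 5 with median-ratio scaling, 2 without moderation of the variance (834 genes over all) and 15 after the correction for GC content and length (3515 genes over all, 1806 higher and 1709 lower, against 1399, 578 higher and 821 lower). PMVK changed sign to 0.019 with median-ratio scaling. Leaving out 1 library in turn gave 300 to 3512 genes and 1 to 16 members, and a median of the fatty acid branch from -0.41 to -0.27. Over those 6 fits the log2 fold change ran from -0.12 to 0.36 for SC5D, -0.17 to 0.10 for PMVK, -0.26 to 0.039 for SCAP, -0.43 to 0.10 for STARD4, -0.39 to 0.0081 for HMGCS1, -0.24 to 0.20 for SQLE, -0.29 to 0.20 for CYP51A1 and -0.58 to 0.038 for MSMO1. The cause of these differences was not tested. Each of these fits also rests on fewer libraries. With the replicate number as a block, 923 genes and 4 members (ELOVL6, FDPS, IDI1 and LSS) were called, and ACAT2 (adjusted p = 0.059), FDFT1 (0.051), NSDHL (0.064), ACLY (0.069) and SCD (0.074) lost the call; same-numbered libraries of the groups had deviations that correlated by 0.073, 0.0065 and 0.057, not every library correlated best with its own number, and the submitters' design text calls the cells paired, while no label says what a number shares. Depth did not limit the members, the lowest of which rested on about 405 fragments.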
